A study of Homo sapiens with 6 samples.

Results

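The enzymes that build nucleotides and carry folate carbon units were followed in RNA–Seq of SK-Hep1 cells with and without knockdown of the long non-coding RNA *RAB30-DT*. The set held 35 genes among the 62700 gene identifiers measured. They were chosen by symbol for their place in these pathways. The rule uses no measured value, but the set was proposed with earlier results of these data known. They comprised 2 PRPP synthetases, 13 purine enzymes, 6 pyrimidine enzymes, 10 enzymes of deoxynucleotide (dNTP) supply and 4 folate-dependent one-carbon enzymes. All 35 were matched by identifier, and all 35 passed the filter of a mean of at least 1 TPM that left 14020 genes for testing.

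SK-Hep1 is an established line from a human liver cancer, which the study describes as endothelial-derived. The 3 control libraries were titled shControl, although their genotype label was WT, and the 3 knockdown libraries were titled shRAB30-DT with the genotype label RAB30-DT knockdown. According to the study's methods, stable lines were made with pLKO.1 lentiviral vectors and puromycin selection. The methods name 2 knockdown vectors, and the labels do not say which of them these libraries carried. Nothing states that replicates came from separate cultures, so the p-values measure only the spread between these libraries, which may be technical. In bulk RNA, fewer cells that express a gene and less of its RNA per cell cannot be told apart.

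As background, nucleotide synthesis starts from an activated ribose, PRPP, which PRPP synthetases make from ribose phosphate. The purine ring is assembled stepwise on this sugar, whereas the pyrimidine ring is closed first and then joined to it. Ribonucleotide reductase turns ribonucleotides into the building blocks of DNA, thymidylate is made with a folate carbon unit, and dividing cells depend on all of these routes.

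The targeted RNA was examined first. *RAB30-DT* (ENSG00000246067.10, plus strand of chromosome 11, hg38, 83072052 to 83107789) had levels of 18.2, 11.5 and 13.9 TPM in control libraries 1, 2 and 3. The knockdown libraries 1, 2 and 3 had 11.9, 10.8 and 6.5 TPM. The groups overlapped, since knockdown library 1 lay above control library 2. The difference was −0.55 on the log2(TPM + 1) scale (standard error 0.27, limma adjusted p = 0.355), so a lower level of the target in the libraries labelled knockdown did not pass the test here. The study separately reports a qPCR check of the knockdown in SK-Hep-1 cells, and does not say whether it used the cultures sequenced. Of 8 hepatocyte markers, *ALB*, *APOB*, *TTR* and *HNF4A* were listed at 0 in all 6 libraries, *APOA1* was at most 0.46 TPM, *AFP* 1.63 TPM and *CPS1* 4.71 TPM, while *SERPINA1* had 18.1 to 37.2 TPM. Of 6 endothelial markers, *KDR* and *ERG* were listed at 0, and *PECAM1*, *CDH5*, *TEK* and *VWF* were at most 0.36 TPM. Most of the markers listed for both cell types were thus at or near 0. Of 6 mesenchymal markers, *VIM* had 3793 to 4784 TPM, *THY1* 76.0 to 148 TPM and *FN1* 12.8 to 22.8 TPM, whereas *CDH2*, *COL1A1* and *COL1A2* were at most 5.54 TPM. The values are TPM, which keep no read number, and sequencing depth was thus unknown.

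Across the 35 enzymes, 27 had a lower and 8 a higher mean in knockdown cells on the log2 scale. The median difference was −0.37, with a range of −1.94 to 0.57, beside a median of −0.04 over all 14020 genes. At a limma adjusted p under 0.05, 3 enzymes fell, *PRPS1*, *PRPS2* and *CTPS1*, and 0 rose. Over all genes tested, 94 genes (0.67%) were called lower and 52 (0.371%) higher. All 3 knockdown libraries lay below all 3 control libraries for 18 of the 35 enzymes, a pattern found in 13.4% of all genes tested. The opposite order was found for 2 enzymes, *IMPDH2* and *ADSS1*, and in 9.89% of all genes, whereas 15 enzymes overlapped. At an unadjusted limma p under 0.05 there were 18 lower enzymes and 1 higher, *IMPDH2*, and 2350 of the 14020 genes. With 3 libraries against 3, the smallest two-sided p of an exact permutation test is 0.1, which every enzyme without overlap reached.

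**Figure D1:**
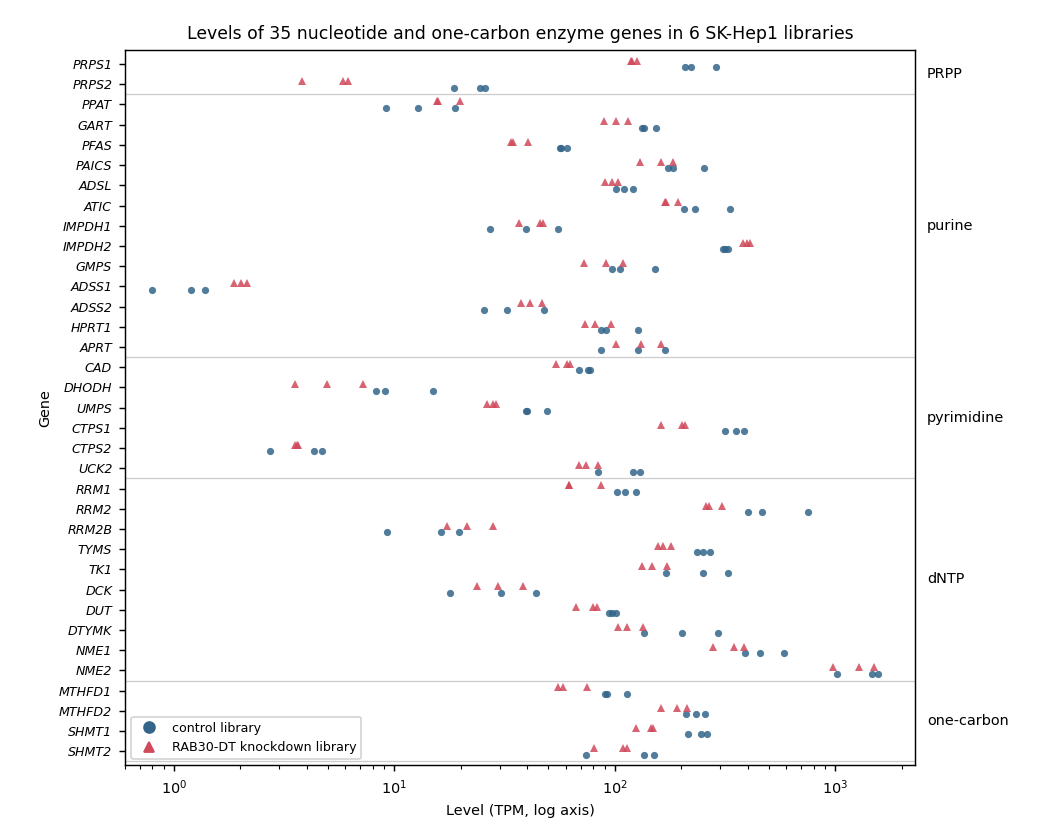
Level of each of the 35 enzyme genes in TPM on a log axis, grouped by pathway, with circles for the 3 control and triangles for the 3 knockdown libraries. Levels run from *ADSS1*, at 0.80 to 2.16 TPM, to *NME2*, at 977 to 1554 TPM, and the triangles of *PRPS1*, *PRPS2* and *CTPS1* lie clear of the circles.

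The levels of the 35 spanned a wide range. Of these genes, 21 had a control mean of at least 100 TPM and 2 had fewer than 10 TPM, and the median of the control means was 113 TPM. *NME2*, which passes phosphate between nucleoside diphosphates and triphosphates, was the highest, at 1345 ± 286 TPM (SD, n = 3) in control cells. It was followed by *RRM2* at 540 ± 188 TPM and *NME1* at 476 ± 99.02 TPM, whose control ranges overlapped. The lowest were *CTPS2* at 3.91 ± 1.03 TPM and *ADSS1* at 1.13 ± 0.297 TPM. The summed level of the 35 was 5906, 6136 and 7166 TPM in the control libraries and 4601, 4948 and 5013 TPM in the knockdown libraries.

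**Figure D2:**
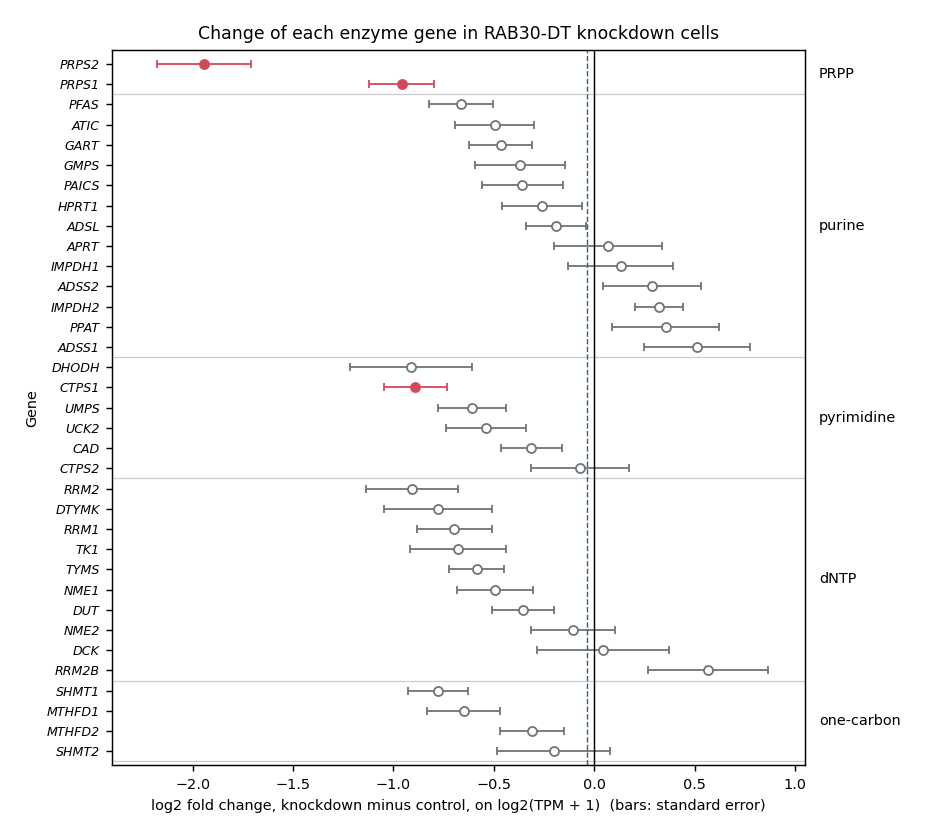
Log2 fold change (knockdown minus control, on log2(TPM + 1)) of each enzyme with its standard error, by pathway. Filled points mark the 3 genes called by limma, *PRPS2*, *PRPS1* and *CTPS1*, the dashed line is the median of all genes tested (−0.04), and 27 points lie below 0.

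At the entry point, both PRPP synthetases fell. Their median log2 fold change was −1.45, the lowest of the 5 pathway groups, and *PRPS2* showed the largest decrease of the 35. *PRPS2* (chromosome X, plus strand, 12791355 to 12824222) had 25.7, 18.7 and 24.6 TPM in the control libraries and 5.84, 6.17 and 3.81 TPM in the knockdown libraries. The group means were 23.0 ± 3.78 TPM in control and 5.27 ± 1.28 TPM in knockdown cells (SD, n = 3 per group). The log2 fold change of *PRPS2* was −1.94 (standard error 0.23, limma adjusted p = 0.0219). The knockdown libraries were all far below the lowest control library. *PRPS1* (chromosome X, plus strand, 107628428 to 107651993), the more abundant enzyme, had 207, 222 and 287 TPM in control cells and 119, 126 and 119.7 TPM in knockdown cells. It fell by 0.96 on the log2 scale (standard error 0.16, limma adjusted p = 0.0418), and the 3 knockdown libraries were close together. *PRPSAP1* and *PRPSAP2*, proteins that bind these synthetases and restrain them, differed by −0.07 and 0.05 on the log2 scale, and neither passed the test.

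The source of the sugar was measured too. *RPIA* (chromosome 2, plus strand, 88691673 to 88750929) makes the ribose phosphate that PRPP synthetases use, and it belongs to the list of 80 related pathway genes rather than to the 35. *RPIA* had 34.8, 37.9 and 35.2 TPM in the control libraries and 9.86, 11.6 and 11.3 TPM in the knockdown libraries. It fell by 1.63 on the log2 scale (standard error 0.17, limma adjusted p = 0.00878), with a wide gap between the groups. The other 6 genes of the pentose phosphate route were not called. *TKT*, a transketolase, differed by −0.55, *TALDO1*, a transaldolase, by −0.32, and *PGD*, which makes ribulose phosphate, by 0.38 on the log2 scale.

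**Figure D3:**
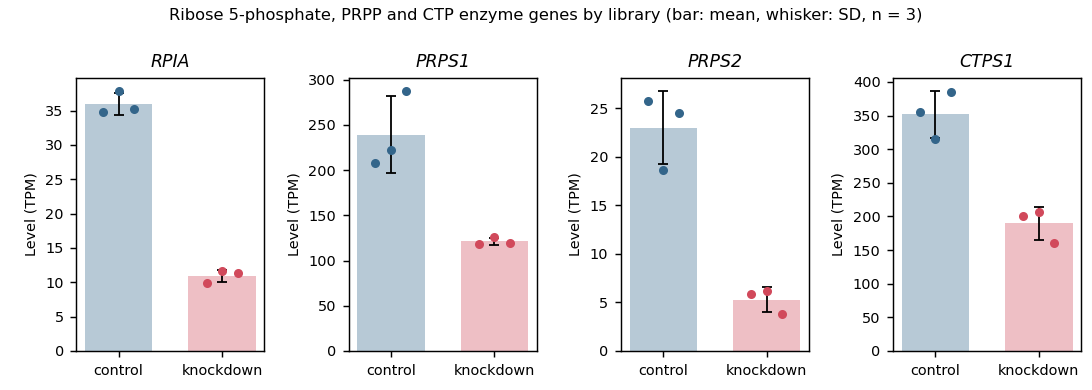
TPM of *RPIA*, *PRPS1*, *PRPS2* and *CTPS1* in each library, with circles for libraries, bars for the mean and whiskers for the SD (n = 3 per group). In each panel the 3 knockdown libraries lie below the 3 control libraries, with means of 10.9 against 36.0 TPM for *RPIA* and 5.27 against 23.0 TPM for *PRPS2*.

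The starts of the 3 enzymes that fell are shown here, because E2F transcription factors are known to act at the promoters of many genes of nucleotide supply. Each run spans 250 bases before to 50 bases after the RefSeq start on GRCh38.p14, 5′ to 3′ on the plus strand. Capitals mark matches to short letter patterns on either strand.
*PRPS1*, chrX:107628260-107628559: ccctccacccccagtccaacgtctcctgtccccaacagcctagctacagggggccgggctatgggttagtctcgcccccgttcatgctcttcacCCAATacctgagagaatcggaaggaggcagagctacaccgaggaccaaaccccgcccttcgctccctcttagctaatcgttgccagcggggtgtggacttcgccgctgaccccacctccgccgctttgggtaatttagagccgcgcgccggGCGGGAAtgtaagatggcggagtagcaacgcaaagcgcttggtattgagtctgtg
*PRPS2*, chrX:12791162-12791461: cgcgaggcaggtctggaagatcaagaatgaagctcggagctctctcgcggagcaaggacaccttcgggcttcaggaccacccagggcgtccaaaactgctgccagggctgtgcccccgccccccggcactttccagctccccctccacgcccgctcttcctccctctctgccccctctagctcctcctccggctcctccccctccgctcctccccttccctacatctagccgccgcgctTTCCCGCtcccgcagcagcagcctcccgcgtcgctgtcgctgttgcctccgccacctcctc
*CTPS1*, chr1:40979446-40979745: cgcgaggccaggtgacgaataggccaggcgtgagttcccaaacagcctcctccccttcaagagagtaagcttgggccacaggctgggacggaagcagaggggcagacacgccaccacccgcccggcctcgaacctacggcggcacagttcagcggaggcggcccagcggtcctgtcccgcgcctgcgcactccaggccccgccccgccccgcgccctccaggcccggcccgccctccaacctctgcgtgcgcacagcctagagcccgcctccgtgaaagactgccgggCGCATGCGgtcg
The capitals in *PRPS1* mark a CCAAT box at position 95 and, at position 246, an E2F pattern on the minus strand. Those in *PRPS2* mark an E2F pattern at position 240. Those in *CTPS1* mark an NRF1 pattern that reads on both strands and overlaps itself, at positions 289 and 290. A further window of *CTPS1*, at chr1:40988269-40988568, held no match and is not shown.

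Windows were on hand for 31 of the 35 enzymes. Some genes had several RefSeq starts, so these 31 had 46 windows. Here and for all tested genes, a gene was counted if any of its windows held a match. The E2F patterns searched, TTCCCGC or TTGGCGC on either strand, were in 10 of these 31 (32.3%), beside 18% of the tested genes with such a window. They were in 6 of 9 dNTP genes (*DCK*, *DUT*, *RRM1*, *RRM2*, *TK1* and *TYMS*), in both PRPP synthetases, in 2 of 11 purine genes, and in 0 of 6 pyrimidine and 0 of 3 one-carbon genes. The E-box CACGTG was in 7 of 31 (22.6%), beside 12.7%, and in none of the 3 enzymes that fell. CCAAT was in 13 of 31 (41.9%) beside 43.3%, the NRF1 pattern GCATGCG in 3 of 31 (9.7%) beside 7.9%, and the ATF4 pattern TGATGCA in 0 of 31 beside 1.9%. These are matches of letters, not measured binding. Of the 10 enzymes with an E2F match, 9 had a lower mean in knockdown cells and 2 fell, and of the 21 with a window and no match, 16 had a lower mean and 1 fell. The difference between these classes was not tested.

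The purine pathway did not move in 1 direction. Of its 13 genes, 7 had a lower and 6 a higher mean in knockdown cells, with a median log2 difference of −0.19. In limma 0 passed the test, beside 0.67% of all genes called lower and 0.371% higher. The smallest adjusted p of the 13 was 0.0954. An unadjusted p under 0.05 was found for 4, *GART*, *PFAS* and *ATIC*, which were lower, and *IMPDH2*, which was higher. Over all genes tested, 2350 of 14020 had such a p.

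Among the 6 genes that lead to inosine monophosphate (IMP), the first purine nucleotide, 5 were lower. *PFAS*, which adds a nitrogen from glutamine, had 56.6, 60.4 and 56.98 TPM in control cells and 34.6, 33.9 and 40.5 TPM in knockdown cells. Its log2 difference was −0.66 (standard error 0.16, limma adjusted p = 0.0954), with tight groups that did not overlap. *GART*, which carries 3 activities of the route, had 153, 133 and 135 TPM in control cells and 115, 102 and 89.1 TPM in knockdown cells. *ATIC*, which closes the ring, had 331, 229.8 and 206 TPM in control cells and 193, 169.6 and 170.3 TPM in knockdown cells. *GART* and *ATIC* differed by −0.47 and −0.50 on the log2 scale, without overlap, and neither passed the test (limma adjusted p = 0.195 and 0.255).

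*PPAT*, which commits PRPP to purines, and *PAICS*, which acts later in the same route, start 126 bases apart on opposite strands of chromosome 4. Their means went opposite ways. *PPAT* had 9.17 to 18.9 TPM in control cells and 15.6 to 19.9 TPM in knockdown cells, a log2 difference of 0.36 (95% interval −0.26 to 0.97). *PAICS* had 175 to 253 TPM in control cells and 129.99 to 184 TPM in knockdown cells, a log2 difference of −0.36 (−0.82 to 0.10). Both pairs of groups overlapped, neither gene was called, and the difference between them was not tested. *ADSL*, which acts both before and after IMP, differed by −0.19 with overlap.

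In the branch from IMP to AMP and GMP, 4 of 5 genes had a higher mean in knockdown cells, with a median of 0.29. *IMPDH2*, which commits IMP to guanine nucleotides, had 309, 326 and 317 TPM in control cells and 399, 412 and 379.8 TPM in knockdown cells. All 3 knockdown libraries were higher, by 0.32 on the log2 scale (standard error 0.12), but the limma adjusted p was 0.231. *IMPDH2* shares 1680 exonic bases (32.8%) with another annotated gene on the same strand, whose mean was 2.64 TPM. *ADSS1*, the muscle-type enzyme toward AMP, was without overlap as well, at 1.38, 1.20 and 0.80 TPM in control cells and 1.88, 2.16 and 2.01 TPM in knockdown cells. Its levels were the lowest of the 35, and its log2 difference of 0.51 was not called (limma adjusted p = 0.372). *IMPDH1* (0.13) and *ADSS2* (0.29) overlapped, and so did *GMPS* (−0.37), which completes GMP. The salvage enzymes *HPRT1* and *APRT*, which recycle purine bases with PRPP, differed by −0.26 and 0.07 with overlap.

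All 6 pyrimidine genes had lower means in knockdown cells. The median log2 difference was −0.57. In 5 of the 6 the knockdown group was lower without overlap, beside 13.4% of all genes tested, and 1 fell, beside 0.67%. The gene that fell was *CTPS1* (chromosome 1, plus strand, 40979300 to 41012565), which makes CTP from UTP. It had 355.5, 315 and 384 TPM in control cells and 201, 207 and 161 TPM in knockdown cells. The means were 352 ± 34.8 and 189.8 ± 24.9 TPM (SD, n = 3 per group), and it fell by 0.89 on the log2 scale (standard error 0.16, limma adjusted p = 0.0447). Its partner *CTPS2* had 2.74 to 4.68 TPM in control cells and 3.53 to 3.65 TPM in knockdown cells, and the groups overlapped.

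The 3 genes of pyrimidine synthesis from simple precursors were lower in each knockdown library than in any control library. *CAD*, whose protein carries the opening steps, had 68.9, 75.3 and 77.2 TPM in control cells and 60.8, 62.8 and 54.3 TPM in knockdown cells. *DHODH*, the mitochondrial enzyme that oxidizes dihydroorotate, had 9.07, 8.24 and 14.9 TPM in control cells and 3.54, 7.24 and 4.93 TPM in knockdown cells. *UMPS*, which completes UMP, had 39.5, 39.9 and 49.45 TPM in control cells and 26.3, 27.95 and 28.9 TPM in knockdown cells. In *DHODH*, knockdown library 2 stood close to control library 2. Their log2 differences were −0.31, −0.91 and −0.61, and none was called (limma adjusted p = 0.345, 0.190 and 0.134). *UCK2*, a salvage kinase for uridine and cytidine, had 121, 84.0 and 130.1 TPM in control cells and 69.05, 83.75 and 74.1 TPM in knockdown cells, so its groups were barely apart. It differed by −0.54 (limma adjusted p = 0.232). *UCK2* shares 142 exonic bases (2.0%) with *TMCO1* on the opposite strand, and *TMCO1*, named after its values were seen, fell by 1.28 on the log2 scale (limma adjusted p = 0.0240). *TMCO1* was called in 14 of 19 alternative settings, but not with no filter, without control library 2 or without any 1 knockdown library (limma adjusted p up to 0.138). The strand setting of the counting is not given in the sources used here, and the part of *TMCO1* reads in the *UCK2* values was not tested.

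Of the 10 genes of dNTP supply, 8 had lower means and 6 were lower without overlap, beside 13.4% of all genes tested. In limma 0 passed the test, beside 0.67% of all genes called lower. An unadjusted p under 0.05 was found for 7, beside 2350 of the 14020 genes tested. The median log2 difference was −0.54. Ribonucleotide reductase is built from the large subunit *RRM1* with *RRM2*, the small subunit of dividing cells, or with *RRM2B*, a small subunit induced by p53. *RRM1* had 125, 102 and 111 TPM in control cells and 86.2, 61.7 and 61.65 TPM in knockdown cells. *RRM2* had 464, 402 and 755 TPM in control cells and 306, 268 and 259 TPM in knockdown cells, the high value standing in control library 3. Both were lower without overlap, by −0.70 and −0.91 on the log2 scale (limma adjusted p = 0.122 and 0.112). *RRM2B* went the other way, with 9.27 to 19.7 TPM in control cells and 17.4 to 28.1 TPM in knockdown cells. Its groups overlapped, and its log2 difference of 0.57 (95% interval −0.12 to 1.26) was not called.

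The 4 thymidylate genes were all lower in mean. *TYMS*, which makes dTMP from dUMP with a folate carbon, had 269, 235 and 250.2 TPM in control cells and 179, 166 and 156 TPM in knockdown cells. Its groups were narrow and apart, at −0.59 on the log2 scale (standard error 0.14, limma adjusted p = 0.0911). *TYMS* shares 967 exonic bases (39.9%) with *ENOSF1* on the opposite strand, which had 11.3 to 16.8 TPM in the 6 libraries and a log2 difference of −0.10. *DTYMK*, the kinase of dTMP, had 135, 201 and 293 TPM in control cells and 104, 113 and 133 TPM in knockdown cells. *DUT*, which removes dUTP, had 102, 97.1 and 94.1 TPM in control cells and 79.2, 83.1 and 66.9 TPM in knockdown cells. *DTYMK* and *DUT* differed by −0.78 and −0.35, both without overlap and neither called (limma adjusted p = 0.202 and 0.296). *TK1*, the thymidine kinase of dividing cells, had 171, 252 and 326 TPM in control cells and 133, 147 and 173 TPM in knockdown cells. Knockdown library 3 lay just above control library 1, and the log2 difference of −0.68 was not called.

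*NME1* had 391, 453 and 585 TPM in control cells and 279, 345 and 384 TPM in knockdown cells, a log2 difference of −0.50 without overlap (limma adjusted p = 0.245). *NME2* differed by −0.11 with overlap. *NME1* and *NME2* are neighbours of closely similar sequence that also share exons with a readthrough gene, *NME1-NME2*, so the split of reads among them is uncertain. The readthrough gene had 4.04, 23.7 and 19.6 TPM in control cells and 21.9, 24.9 and 35.6 TPM in knockdown cells. *DCK*, the kinase that salvages deoxycytidine, differed by 0.05 with overlap, and its direction turned with 5 of 19 alternative settings.

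Markers of dividing cells were measured beside these genes. All 12 proliferation genes measured had lower means, with a median log2 difference of −0.67. Of these, 8 were lower without overlap, beside 13.4% of all genes tested, and 3 fell, beside 0.67%. These were the replicative helicase subunits *MCM3* (−1.09, limma adjusted p = 0.0253), *MCM4* (−0.98, 0.0291) and *MCM6* (−1.07, 0.0418). *PCNA*, the replication clamp, differed by −0.56 without overlap and was not called. The cycle marker *MKI67* differed by −0.27, with 80.3 to 115 TPM in control cells and 60.9 to 89.0 TPM in knockdown cells, and its groups overlapped, as did those of *TOP2A*, *CCNA2* and *CDK1*. *MCM3* was called in 14 of 19 alternative settings and *MCM4* and *MCM6* in 12 each. None of the 3 was called with no filter, without control library 2 or without any 1 knockdown library, with limma adjusted p up to 0.153, 0.179 and 0.180. *MCM4* was also not called with median-of-ratios scaling or with eBayes without trend, nor *MCM6* with eBayes without trend or without control library 3. The part of a change in dividing cells in the levels of the dNTP genes was not tested.

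The 4 one-carbon genes all had lower means. In limma 0 passed the test, beside 0.67% of all genes called lower. An unadjusted p under 0.05 was found for 2 of the 4, beside 2350 of the 14020 genes tested. The 2 cytosolic enzymes were lower without overlap, as were 13.4% of all genes tested. *SHMT1*, which moves a carbon from serine to folate and in doing so serves thymidylate, had 214, 245 and 263 TPM in control cells and 124, 146 and 149.6 TPM in knockdown cells. Its log2 difference of −0.78 (standard error 0.15) had a limma adjusted p of 0.0608, the smallest of the 32 enzymes that were not called. *MTHFD1*, which supplies formyl-folate for purines, had 113, 89.8 and 92.2 TPM in control cells and 58.2, 74.4 and 55.0 TPM in knockdown cells, a log2 difference of −0.65 (limma adjusted p = 0.135). The mitochondrial enzymes *SHMT2* and *MTHFD2* differed by −0.20 and −0.31 with overlap. *SHMT2* ranged from 74.2 to 151 TPM in control cells alone. *SHMT1* shares 197 exonic bases (2.8%) with *SMCR8* on the opposite strand, which had a log2 difference of 0.53 and was not called.

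Enzymes that share a reaction or a compartment pair were compared as ratios within each library. *PRPS1* exceeded *PRPS2* by 8.06, 11.9 and 11.7 times in the control libraries and by 20.3, 20.4 and 31.4 times in the knockdown libraries. *PRPS2* thus made up 11.04%, 7.74% and 7.87% of the summed TPM of the pair in control cells and 4.69%, 4.68% and 3.09% in knockdown cells. *RRM2* exceeded *RRM2B* by 23.6, 24.7 and 81.4 times in control cells and by 10.9, 12.5 and 14.9 times in knockdown cells. The first ratio was higher and the second lower in every knockdown library, although control library 3 stood far above the other control libraries for *RRM2* over *RRM2B*. The ratio of *CTPS1* to *CTPS2* was 76.0, 73.0 and 140.3 in control cells and 55.1, 57.05 and 45.7 in knockdown cells. That of *SHMT1* to *SHMT2* was 2.89, 1.80 and 1.74 against 1.54, 1.34 and 1.31. Both were lower in every knockdown library. Of the 8 pairs compared, 7 ratios were without overlap, each with an exact permutation p of 0.1, the smallest possible, and of 0.114 after Benjamini–Hochberg adjustment over the 8 pairs. The ratio of *IMPDH1* to *IMPDH2* overlapped (exact permutation p = 0.7). Each of the 7 pairs without overlap holds an enzyme whose own groups were without overlap, so the ratios are no separate evidence. The share of other gene pairs without overlap was not computed.

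**Figure D4:**
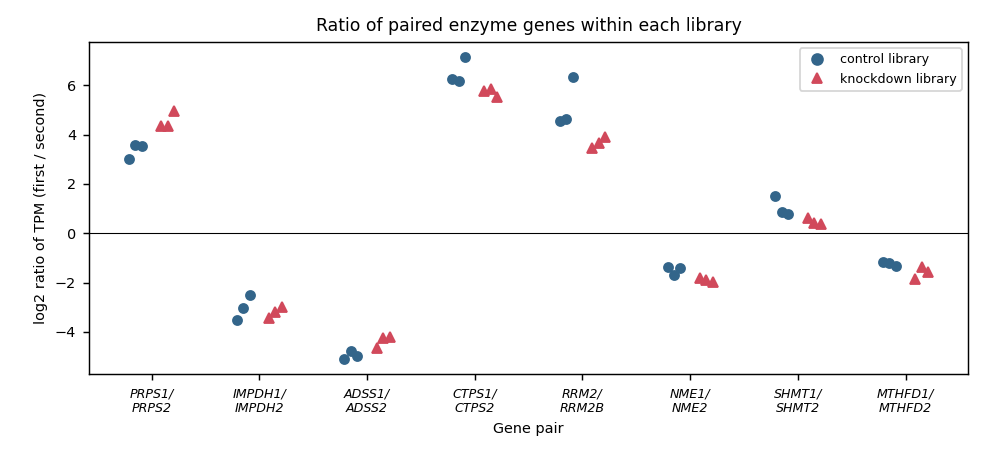
Log2 ratio of the TPM of 8 pairs of enzyme genes within each library, with circles for control and triangles for knockdown libraries. The ratio of *PRPS1* to *PRPS2* lies higher in the 3 knockdown libraries, with means of 4.55 against 3.38, and the ratio of *RRM2* to *RRM2B* lower, with means of 3.66 against 5.18.

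Related pathway genes outside the 35 gave 2 calls. Of 80 listed, 67 passed the filter, with 40 lower and 27 higher means and a median log2 difference of −0.11. Only *RPIA* was called lower and only *AK4* higher, beside 0.67% and 0.371% of all genes. Without overlap, 16 were lower and 8 higher, beside 13.4% and 9.89% of all genes. *AK4* (chromosome 1, plus strand, 65147549 to 65232145), an adenylate kinase of mitochondria, had 33.9, 27.8 and 22.7 TPM in control cells and 75.7, 77.3 and 67.7 TPM in knockdown cells. It rose by 1.37 on the log2 scale (standard error 0.19, limma adjusted p = 0.0256), with all knockdown libraries at more than the highest control value. *AK4* was called in 14 of 19 alternative settings, but not with no filter, without control library 2 or without any 1 knockdown library (limma adjusted p up to 0.153), and its log2 fold change ran from 1.23 to 1.51. *PHGDH*, the first enzyme of serine synthesis, differed by −0.98 without overlap (limma adjusted p = 0.0820), while *PSAT1*, the second enzyme of that route, was at most 0.08 TPM in any library. *FPGS*, which adds glutamate tails to folates, differed by −1.01 without overlap (limma adjusted p = 0.146). Among genes of purine salvage and breakdown, *ADA*, which deaminates adenosine, *AMPD3*, which deaminates AMP, and *GMPR2*, which returns GMP to IMP, differed by 0.58, 0.72 and 0.39, also without overlap and not called. Of the 17 folate and one-carbon genes tested, 13 had lower means, with a median of −0.27, 0 called by limma and 3 at an unadjusted p under 0.05. Over all genes tested, 2350 of 14020 had such a p.

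The 7-base sequence GAGTGAA is shown because it occurs in *RAB30-DT* and because earlier results of these data drew attention to it in 3′UTRs. It was in the 3′UTR of 3 of the 35 enzymes (8.6%), *PRPS2*, *HPRT1* and *RRM2B*, beside 12.5% of 11538 tested coding genes whose 3′UTR reached 50 bases. It was in none of *PRPS1*, *CTPS1* and *RPIA*. *AK4*, which rose, held 1 match. The matches in *PRPS2*, *HPRT1* and *RAB30-DT* are given on hg38 with the 7 bases in capitals.
*PRPS2*, chrX:12823254-12823282: cttttactttgGAGTGAAccttggaaaat
*HPRT1*, chrX:134500337-134500365: acagcactattGAGTGAAacattgaactc
*RAB30-DT*, chr11:83072066-83072084: aGAGTGAAggagcaaaggg
Of the 3 enzymes with the sequence, *PRPS2* fell by 1.94 on the log2 scale. *HPRT1* differed by −0.26 and *RRM2B* by 0.57, and neither was called, with groups that overlapped.

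Libraries of the same group differed along GC content. The deviation of each gene from its group mean had a Spearman rho with GC content of −0.78 in control library 1 and −0.84 in knockdown library 1 over the 35 enzymes. In control library 3 and knockdown library 3 it was 0.64 and 0.77, and in control library 2 and knockdown library 2 it was 0.34 and 0.30. Over all 14020 genes the values ran from −0.70 to 0.56. These correlations are across genes, which share the library and are no replicates. For the 6 enzymes with at least 57% GC (*PFAS*, *IMPDH1*, *APRT*, *CAD*, *TK1* and *DTYMK*), the median deviation was −0.50 in control library 1 and 0.44 in control library 3. For the 6 under 41% GC (*PPAT*, *GMPS*, *ADSS2*, *HPRT1*, *RRM2B* and *DCK*) it was 0.45 and −0.44.

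**Figure D5:**
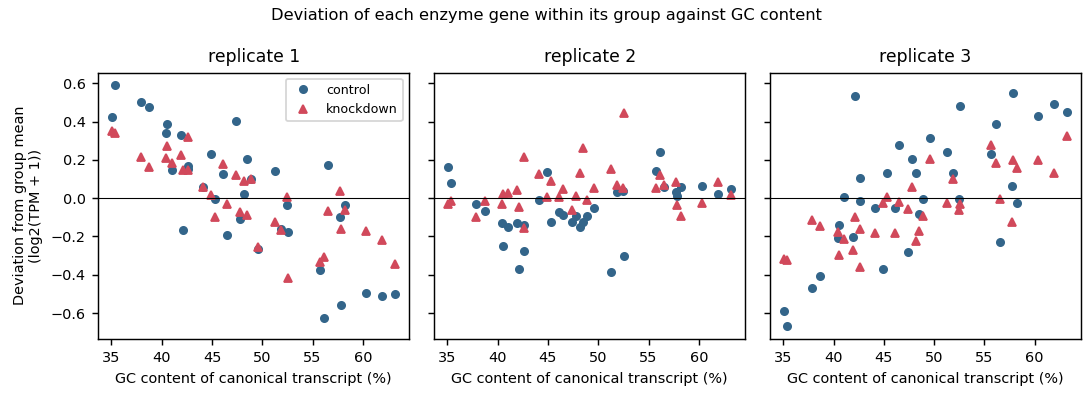
Deviation of each of the 35 enzymes from the mean of its group on the log2(TPM + 1) scale against the GC content of its canonical transcript, with 1 panel per replicate number. Points slope down in both libraries numbered 1 (rho −0.78 and −0.84) and up in both libraries numbered 3 (0.64 and 0.77).

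After removal of the GC trend from every library, 12 of the 35 enzymes were lower at a limma adjusted p under 0.05, beside 5.83% of all genes, and 0 were higher (2 at an unadjusted p under 0.05), beside 3.34%. The 12 were *PRPS1*, *PRPS2*, *GART*, *PFAS*, *UMPS*, *CTPS1*, *RRM1*, *TYMS*, *TK1*, *DTYMK*, *MTHFD1* and *SHMT1*, and the median log2 difference of the 35 was −0.41. Their values with the trend in place are those given above. *PRPS1*, *PRPS2* and *CTPS1* stayed called without control library 1, and *PRPS1* and *PRPS2* without control library 3, but none of the 3 was called with any other library left out. Without control library 2 their limma adjusted p were 0.153, 0.0669 and 0.145, and without knockdown library 3 they were 0.180, 0.0894 and 0.181. Without knockdown library 1 they were 0.152, 0.0753 and 0.137, and without knockdown library 2 they were 0.191, 0.0761 and 0.177, while *CTPS1* without control library 3 had 0.0717. Their log2 fold changes stayed negative in all 19 alternative settings, from −1.05 to −0.78 for *PRPS1*, from −2.12 to −1.44 for *PRPS2* and from −0.97 to −0.68 for *CTPS1*. *RPIA* was likewise not called without control library 2 or without any 1 knockdown library, with log2 fold changes from −1.71 to −1.36 over the 19 settings.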

How the data were processed

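RNA–Seq was analysed for 6 libraries, 3 control and 3 RAB30-DT knockdown, grouped by their labels. The authors deposited TPM values per gene, which correct for length and sum to the same total in each library, with 2 decimals. Read numbers and depth are therefore unknown, and precision depends on having 3 libraries in a group. The methods name fastp, STAR, samtools, RSEM and GENCODE Release 45, whereas the submitters' processing notes name fastp, HISAT2 2.0.5 and hg38. All 62700 versioned identifiers matched GENCODE Release 44, which gave symbols, positions on hg38, GC content (canonical transcript) and 3′UTRs. Promoter windows of 300 bases came from RefSeq (GRCh38.p14). The strand setting of the counting is not given in the sources used here.

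Values were analysed as log2(TPM + 1), without scaling between libraries, for 14020 genes whose mean reached 1 TPM. The fit used lmFit and eBayes with trend in limma 3.58.1 (R 4.3.3), two-sided, without a block, and Benjamini–Hochberg adjustment over these genes with a threshold of 0.05. A fold change on this scale understates the change of low genes. The fit was tested on simulated data. The 35 genes, the related lists, the 7-base sequence and the promoter patterns were chosen with earlier results of these data known. All 35 genes were to be named, with the value in each library for those called or without overlap, and of the related pathway genes those called. PHGDH, PSAT1, FPGS, ADA, AMPD3, GMPR2, TKT, TALDO1, PGD and the genes that overlap a member were named outside this rule, after their values were seen, as were the proliferation genes singled out.

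The alternatives were other pseudocounts (0.1 and 5), other filters (none, or a mean of 5 TPM), quantile normalization, scaling by the median of ratios, TPM recomputed with mitochondrially encoded genes removed, eBayes with robust estimation or without trend, arrayWeights (gene by gene), a replicate block, subtraction of a loess curve (span 0.3) against GC content in every library, leaving out 1 library at a time, and a threshold of 0.1. Their application to RPIA, AK4, MCM3, MCM4, MCM6 and TMCO1 was added after the data were seen.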

Additional observations from a re-analysis of the deposited data

How the results depend on the processing

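The count of enzymes that fell (3) was 0 with no filter, 1 each with median-of-ratios scaling, with quantile normalization and with eBayes without trend, 6 at an adjusted p under 0.1, 12 with the GC trend removed and 14 with arrayWeights. Where it was 1, PRPS2 was called, and in these 3 settings, in the order given, the adjusted p of PRPS1 was 0.0756, 0.0564 and 0.0832 and that of CTPS1 0.0601, 0.0898 and 0.0957. The count ran from 0 to 6 with single libraries left out. The count of enzymes that rose (0) was 1, IMPDH2, with arrayWeights, and 0 otherwise. The arrayWeights fit gave control library 2 a weight of 3 and knockdown library 2 a weight of 4.39. The other libraries had weights from 0.316 to 0.948, so the counts of this fit rest mainly on the libraries numbered 2. Over all genes, the 146 calls became 13 with no filter, 455 at an adjusted p under 0.1, 1286 with the GC trend removed and 3218 with arrayWeights. They ran from 12 to 489 with single libraries left out. Of the 14020 genes tested, 94 were called lower in the main fit, 818 with the GC trend removed and 1931 with arrayWeights. With no filter, 27381 genes were tested, and with a library left out fewer samples entered. Why the counts changed was not tested for any setting. The share of lower calls among all calls was 64.4%, against 53.5% with median-of-ratios scaling and 51.6% with quantile normalization, while 27 of the 35 enzymes had a lower mean under all 3.

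The replicate block gave 11 enzymes lower and 861 calls over all genes, of which 550 of the 14020 genes tested were lower and 311 higher. With the GC trend removed as well it gave 13 enzymes lower and 1137 calls, 740 lower and 397 higher. Deviations of same-numbered libraries correlated at 0.41, 0.036 and 0.28 for numbers 1, 2 and 3. Control library 2 correlated best with knockdown library 3 (0.11) and knockdown library 2 with control library 3 (0.061), so replicate numbers were not used as pairs in the main fit. The GC trend over all tested genes was nevertheless alike in libraries of the same number. In control and knockdown libraries rho was −0.701 and −0.645 for number 1, 0.285 and 0.235 for number 2, and 0.556 and 0.544 for number 3. Why they were alike was not tested.

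DCK turned to −0.031 with arrayWeights and to −0.046 with the GC trend removed, with or without the block. With single libraries left out it ran from −0.29 to 0.34, IMPDH1 from −0.12 to 0.38, APRT from −0.18 to 0.29, CTPS2 from −0.26 to 0.045 and NME2 from −0.29 to 0.06, and each of these changed sign. The other 30 enzymes kept their direction in all alternatives run. RAB30-DT passed the threshold in none of them, with log2 differences from −0.70 to −0.24.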

Other observations

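Some partners of the 35 enzymes were listed at or near 0. PSAT1, the second enzyme of serine synthesis, was listed at 0 in all 3 control libraries and had 0.08, 0 and 0.06 TPM in knockdown libraries 1, 2 and 3, while PHGDH, the enzyme before it, had 118 to 184 TPM in control cells and 58.8 to 82.7 TPM in knockdown cells. The mitochondrial nucleotide kinase CMPK2 and the folate receptor FOLR1 were listed at 0 in all 6 libraries. The folate dehydrogenases ALDH1L1 and ALDH1L2 were at most 0.25 and 0.48 TPM.

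CD68, known from macrophages, had 66.8, 53.7 and 28.4 TPM in control cells and 126, 129 and 107 TPM in knockdown cells (log2 difference 1.34, limma adjusted p = 0.0816), while the leukocyte gene PTPRC and the T cell gene CD3E were listed at 0 in all 6 libraries. Among genes that name copies of the 35 enzymes, the highest mean over the 6 libraries was that of PRPS1P2, at 1.70 TPM. These genes were chosen after their values were seen.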
